A study of Mus musculus with 9 samples.

Results

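The 9 genes described here encode enzymes of the citric acid cycle of mitochondria, namely Cs, Idh3a, Idh3b, Idh3g, Ogdh, Suclg1, Sucla2, Fh1 and Mdh2. They were taken by gene symbol from a table of RNA-seq read counts, and all 9 were present among the 13192 genes tested. Succinate dehydrogenase, which also belongs to the respiratory chain, was left out of the set and is given below with the other cycle enzymes. The samples were the apex of the heart of male wild-type C57BL/6J mice. The AAV-Osm group had 5 samples, from animals given 1e+11 viral particles of an adeno-associated virus carrying oncostatin M, a cytokine of the interleukin-6 family. The AAV-Null group had 4 samples, from animals given the same number of particles of the control virus. Each virus was injected into the right gastrocnemius muscle at 10 weeks of age, and hearts were taken 12 weeks later. The submitters state that 5 samples per group were sent for sequencing and that 9 in all were used. The labels give no replicate numbers, so libraries are numbered here within each group in the order of the samples. The heart was thus not the injected organ, and no source used here gives the promoter or serotype of the viruses. Osm itself was not analysed here, so no check of the labels was made from it. Nothing in the labels states outright that each library came from a different mouse. The tests treat each of the 9 libraries as an independent sample. They set the difference between groups against variation between libraries, which may not be that between mice.

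The citric acid cycle oxidises the acetyl groups made from fatty acids, glucose and ketone bodies, and hands the electrons to the respiratory chain as NADH and reduced flavin. Heart muscle makes most of its ATP this way, and its cells are rich in mitochondria and in the transcripts of these enzymes. All are encoded in the nucleus, and an enzyme built of several kinds of subunit has a separate gene for each.

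Library totals ran from 11841106 to 24551980 counts in AAV-Osm and from 18594875 to 30625134 counts in AAV-Null hearts. The lowest count of any of the 9 genes in any library was 3543, so counting error was small beside the spread between libraries. All 12 cardiomyocyte markers examined were in the table, and their summed level was 112382 to 147050 CPM (counts scaled to a common library total with TMM factors) in AAV-Osm and 110690 to 145599 CPM in AAV-Null hearts. Summed epicardial markers were 9.35 to 41.4 CPM in AAV-Osm and 40.9 to 125 CPM in AAV-Null hearts. That list averaged lower in AAV-Osm hearts (exact two-sided permutation p = 0.0159, not adjusted over the 10 lists tested). Of its 5 genes 0 passed in edgeR (smallest adjusted p 0.468). The exact p was 0.0536 without AAV-Null 4 and 0.0571 without any of AAV-Osm 1, 2, 4 and 5. With fewer libraries p moves in coarser steps, and without those AAV-Osm libraries the difference was -40.5 to -34.2 CPM, against -38.4 CPM with all. The part of this list in the values below was not tested. Its summed level was below that of the cardiomyocyte markers, but sums over different genes do not measure shares of cells. The other 9 marker lists did not pass this test. In bulk tissue, fewer cells of a type and less RNA per cell cannot be told apart.

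No enzyme among the 9 passed the test between AAV-Osm and AAV-Null hearts. In edgeR's quasi-likelihood test with Benjamini-Hochberg adjustment over all genes, 0 of the 9 had an adjusted p under 0.05, where 0.121% of all genes did. At an unadjusted p under 0.05 the count was again 0 of 9, where 5.97% of all genes passed. DESeq2 called 0 of the 9, where it called 0.410% of the 12934 genes to which it gave an adjusted p. Limma-voom with quality weights called 0 of the 9, where it called 1.33% of all genes. The AAV-Osm and AAV-Null libraries overlapped for every one of the 9, where the groups did not overlap for 2.28% of all genes. Fold changes in log2 ran from -0.076 for Idh3a to 0.29 for Sucla2, 6 positive and 3 negative, with a median of 0.050 beside 0.0092 over all genes. A p that misses the threshold does not show equal levels, so each gene is given with the 95% interval of its fold change.

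**Figure D1:**
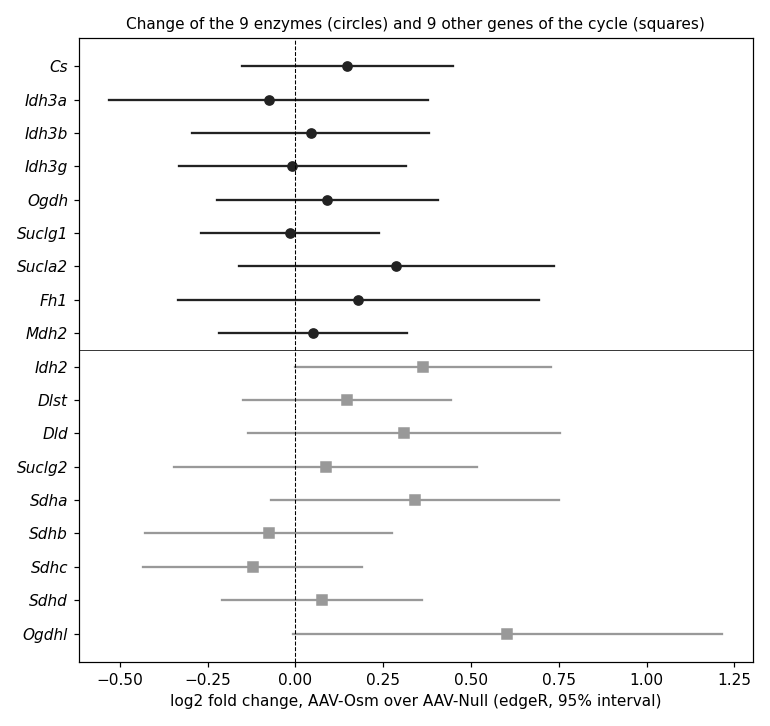
Fold changes of the 9 enzymes (circles, above the line) and of 9 other genes of the cycle (squares, below it). The x axis is the log2 fold change of AAV-Osm over AAV-Null from edgeR and bars are 95% intervals; all 9 intervals of the enzymes described here include 0, and the narrowest is that of Suclg1.

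The promoter sequences of Idh3b and Idh3g are shown because the transcripts of these subunits, which belong to 1 enzyme, kept the closest ratio of any pair among the 9 genes (described further on). Each is the 250 bases upstream of the RefSeq start of the gene (GRCm38.p6, the assembly of mm10), 5′ to 3′ on the gene's own strand. They lie at chr2:130284452-130284701, minus strand, and chrX:73786898-73787147, minus strand. In the GENCODE M21 annotation Idh3b starts at 130284547, inside its window, so by that annotation part of this window is transcribed. Capitals mark matches to the motifs searched.
Idh3b: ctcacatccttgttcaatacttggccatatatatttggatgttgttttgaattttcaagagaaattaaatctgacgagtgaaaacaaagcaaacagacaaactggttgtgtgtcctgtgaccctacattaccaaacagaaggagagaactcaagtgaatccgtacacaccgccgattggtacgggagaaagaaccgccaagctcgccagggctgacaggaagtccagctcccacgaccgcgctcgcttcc
Idh3g: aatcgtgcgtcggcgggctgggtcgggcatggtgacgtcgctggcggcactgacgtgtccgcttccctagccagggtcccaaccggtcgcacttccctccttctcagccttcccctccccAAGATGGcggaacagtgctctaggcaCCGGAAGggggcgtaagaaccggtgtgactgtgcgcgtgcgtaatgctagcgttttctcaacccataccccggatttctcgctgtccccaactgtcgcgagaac

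The motifs, searched on both strands, were AAGGTCA (estrogen-related receptor), GCGCATG (NRF1), CCGGAAG (GABP), AAGATGG (YY1) and GGGCGG (the GC box of SP1), and no match overlapped a match to another motif. The Idh3g window held AAGATGG and CCGGAAG, and the Idh3b window held none of the 5. Of the 9 genes 8 were in the RefSeq table, which did not list Idh3a. GGGCGG stood upstream of 5 of these 8 genes (Cs, Fh1, Mdh2, Ogdh and Sucla2) and of 32.7% of all 32851 windows of this length. AAGGTCA stood upstream of 0 of the 8 and in 4.08% of all windows, GCGCATG of 1 (Ogdh) and in 3.24%, CCGGAAG of 1 (Idh3g) and in 6.91%, and AAGATGG of 1 (Idh3g) and in 4.49%. The 8 genes have 13 windows, as Ogdh has 6 listed starts and so 6 windows. A gene was counted if any of its windows held the motif, while the shares are of windows, so the gene counts are not directly comparable with them. GCGCATG of Ogdh is the same site seen in overlapping windows. The GENCODE M21 starts of Mdh2 and Suclg1, like that of Idh3b, lie inside their windows. A match describes letters in the window and shows no binding.

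Citrate synthase joins acetyl-CoA to oxaloacetate in the entry step of the cycle. Its gene Cs (chromosome 10, 128337832 to 128362479, plus strand, mm10) had 1205, 1364, 1336, 957 and 1245 CPM in AAV-Osm 1 to 5, against 1038, 1046, 1134 and 1192 CPM in AAV-Null 1 to 4. In 4 of the 5 AAV-Osm libraries Cs lay above every AAV-Null library, but AAV-Osm 4 was the lowest of all 9. The means were 1221 ± 161 CPM in AAV-Osm hearts and 1102 ± 73.8 CPM in AAV-Null hearts (SD, n = 5 and 4), with a log2 fold change of 0.15 (95% interval -0.15 to 0.45, SE 0.139, adjusted p = 0.950 in edgeR). The interval reaches a fall of 10.1% and a rise of 36.5%.

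**Figure D2:**
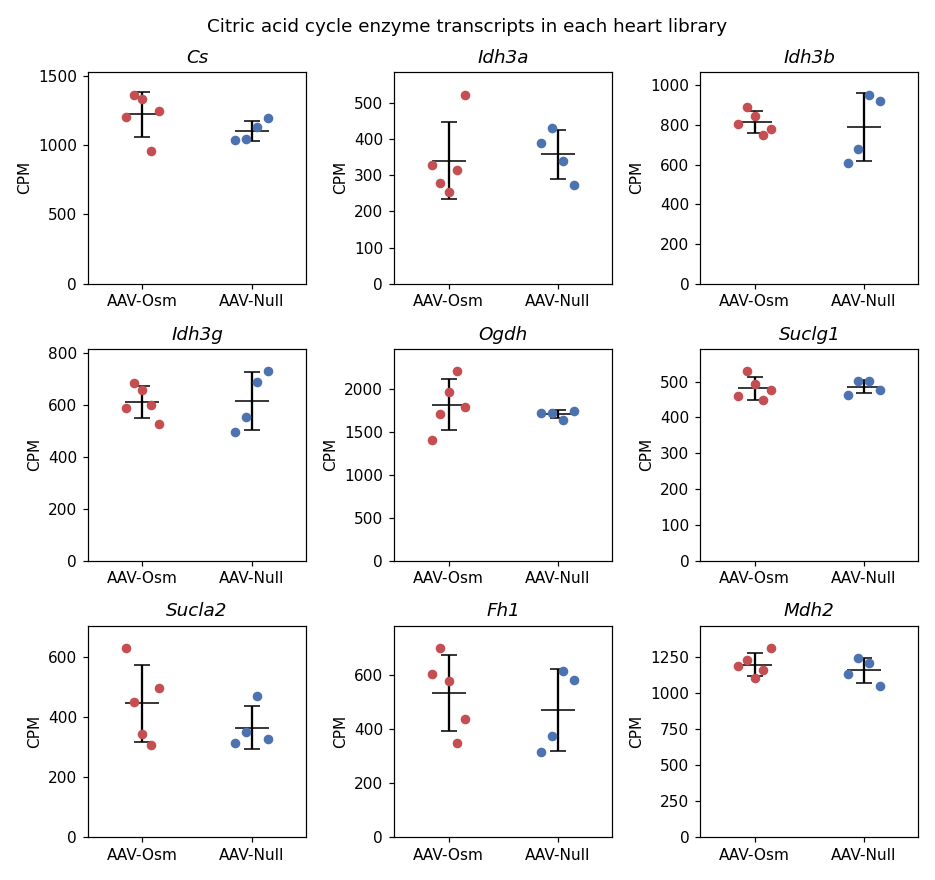
Each panel shows 1 gene, with CPM on the y axis from 0, AAV-Osm libraries on the left and AAV-Null libraries on the right. Points are libraries and bars are the mean and SD; in all 9 panels the groups overlap, and the spread relative to the mean is widest for Fh1, Sucla2 and Idh3a.

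The next oxidative step is taken by the NAD-dependent isocitrate dehydrogenase, made of a catalytic alpha subunit (Idh3a) with beta (Idh3b) and gamma (Idh3g) subunits. Idh3a (chromosome 9, 54586511 to 54604662, plus strand) had 328, 278, 253, 315 and 522 CPM in AAV-Osm 1 to 5, against 388, 431, 338 and 273 CPM in AAV-Null 1 to 4. AAV-Osm 5 was well above the rest of its group, and the lowest libraries were AAV-Osm 3, AAV-Null 4 and AAV-Osm 2. The log2 fold change was -0.076 (95% interval -0.53 to 0.38, SE 0.210, adjusted p = 0.987 in edgeR).

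Idh3b (chromosome 2, 130279309 to 130284451, minus strand) had 808, 893, 847, 748 and 782 CPM in AAV-Osm 1 to 5, against 609, 681, 954 and 920.1 CPM in AAV-Null 1 to 4. The AAV-Null libraries held both extremes, with AAV-Null 1 and 2 lowest and AAV-Null 3 and 4 highest, and all 5 AAV-Osm libraries lay between. Its log2 fold change was 0.044 (95% interval -0.29 to 0.38, SE 0.156, adjusted p = 0.988 in edgeR). Idh3g (chromosome X, 73778963 to 73786897, minus strand) had 589, 682, 658, 599 and 527 CPM in AAV-Osm 1 to 5, against 493, 551, 686 and 728 CPM in AAV-Null 1 to 4, with AAV-Null 1 lowest and AAV-Null 4 highest. Its log2 fold change was -0.0084 (95% interval -0.33 to 0.31, SE 0.150, adjusted p = 0.999 in edgeR), the one nearest 0 of the 9 genes. Exons of Idh3b share 5 bases with Nop56, a gene on the other strand, in the GENCODE M21 annotation, and the strand setting of the counting is unknown. The other 8 genes share exon sequence with no annotated gene there.

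The E1 subunit of the 2-oxoglutarate dehydrogenase complex, encoded by Ogdh (chromosome 11, 6291597 to 6359094, plus strand), carries out the decarboxylation that yields succinyl-CoA and is stimulated by calcium. Ogdh had 1411, 1715, 1972, 2211 and 1799 CPM in AAV-Osm 1 to 5, against 1729, 1722, 1638 and 1751 CPM in AAV-Null 1 to 4. The AAV-Null values lay close together, and the AAV-Osm values spread to both sides of them, with AAV-Osm 1 lowest and AAV-Osm 4 highest. Means were 1821 ± 298 CPM in AAV-Osm hearts and 1710.0 ± 49.4 CPM in AAV-Null hearts (SD, n = 5 and 4), and the log2 fold change was 0.091 (95% interval -0.22 to 0.41, SE 0.146, adjusted p = 0.976 in edgeR).

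Succinyl-CoA ligase converts succinyl-CoA to succinate and forms a nucleoside triphosphate. Its alpha subunit, encoded by Suclg1, pairs either with the ATP-forming beta subunit of Sucla2 or with the GTP-forming beta subunit of Suclg2. Suclg1 (chromosome 6, 73248505 to 73276907, plus strand) had 459.7, 529, 493, 449 and 476 CPM in AAV-Osm 1 to 5, against 464, 501, 502 and 476 CPM in AAV-Null 1 to 4. It was the steadiest of the 9 genes, with a coefficient of variation of 5.19% over all libraries and a highest value 1.18 times the lowest. The log2 fold change was -0.014 (95% interval -0.27 to 0.24, SE 0.117, adjusted p = 0.999 in edgeR), an interval that reaches a fall of 16.9% and a rise of 18.0%.

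Sucla2 (chromosome 14, 73552786 to 73596142, plus strand) had 628, 450.0, 343, 308 and 495 CPM in AAV-Osm 1 to 5, against 312, 351, 468 and 327 CPM in AAV-Null 1 to 4. AAV-Osm 1 was highest and AAV-Osm 4 lowest, so the AAV-Osm group spanned all AAV-Null values. Means were 445 ± 128 CPM in AAV-Osm hearts and 365 ± 71.0 CPM in AAV-Null hearts (SD, n = 5 and 4), and the log2 fold change of 0.29 (95% interval -0.16 to 0.74, SE 0.208, adjusted p = 0.934 in edgeR) was the highest of the 9 in this fit. It came to 0.13 without AAV-Osm 1, below those of Ogdh, Cs and Fh1, and Fh1 was highest with limma-voom. The interval reaches a rise of 66.6% and a fall of 10.6%.

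Fumarase, encoded by Fh1, hydrates fumarate to malate. Fh1 (chromosome 1, 175601378 to 175625635, minus strand) had 603, 699, 578, 349 and 438 CPM in AAV-Osm 1 to 5, against 314, 373, 615 and 583 CPM in AAV-Null 1 to 4. It varied most of the 9 genes, its highest value being 2.23 times its lowest, and each group held both high and low libraries. AAV-Null 1 and 2 and AAV-Osm 4 were the lowest, and AAV-Osm 2 and AAV-Null 3 the highest. The log2 fold change was 0.18 (95% interval -0.33 to 0.69, SE 0.238, adjusted p = 0.970 in edgeR). It came to 0.64 when AAV-Null 3 and 4 were left out and to 0.027 when AAV-Null 1 was, neither past the threshold (edgeR adjusted p = 0.458 and 0.998). AAV-Null 3 and 4 held the highest AAV-Null values and AAV-Null 1 the lowest, so leaving them out had to shift the fold change this way.

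Mitochondrial malate dehydrogenase, which returns malate to oxaloacetate, is encoded by Mdh2. Mdh2 (chromosome 5, 135778649 to 135790386, plus strand) had 1187, 1226, 1104, 1161 and 1311 CPM in AAV-Osm 1 to 5, against 1135, 1241, 1206 and 1046 CPM in AAV-Null 1 to 4. Both the highest library (AAV-Osm 5) and the lowest (AAV-Null 4) lay within 1.25-fold of each other. Its log2 fold change was 0.050 (95% interval -0.22 to 0.32, SE 0.124, adjusted p = 0.986 in edgeR).

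Levels of different genes were compared per length, as RPKM (TMM-scaled CPM divided by the summed exon length in kilobases), over all 9 libraries. Mdh2 was the most abundant at 920.1 ± 61.5 RPKM (mean ± SD, n = 9), above each of the others in every library. Idh3b followed at 529 ± 74.4 RPKM, Idh3g at 460.4 ± 60.4 RPKM and Cs at 413 ± 48.8 RPKM. Idh3b exceeded Idh3g in 9 of 9 libraries and Idh3g exceeded Cs in 8 of 9, although the ranges of these neighbours overlapped. Cs exceeded Suclg1, at 347 ± 18.0 RPKM, in 9 of 9 libraries. Suclg1 and Fh1, at 309.8 ± 84.9 RPKM, did not differ beyond their spread, with Suclg1 higher in 4 of 9 libraries. Ogdh stood at 254 ± 31.6 RPKM, below Fh1 in 6 of 9 libraries. Sucla2 was at 194 ± 51.6 RPKM, below Ogdh in 8 of 9 libraries and above Idh3a in 7 of 9. Idh3a was the least abundant at 144 ± 36.0 RPKM, yet even so 96.3% of all genes tested had a lower mean RPKM. Summed exon length covers all annotated exons, so a gene with exons that the heart does not use, as may hold for a long gene such as Ogdh, has an understated RPKM.

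**Figure D3:**
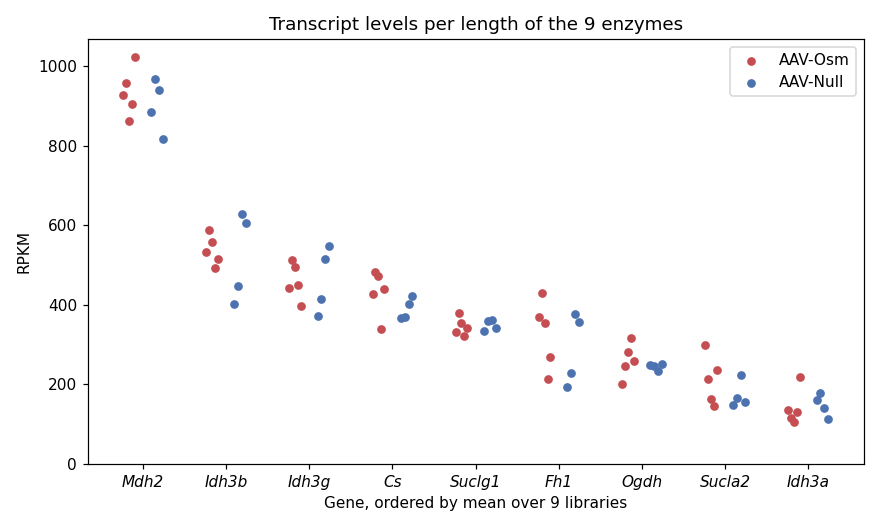
RPKM of each gene in every library (y axis from 0), genes ordered by their mean, AAV-Osm left of AAV-Null. Mdh2 lies between 816 and 1022 RPKM and stands clear of the other genes, whose ranges overlap with those of their neighbours.

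Ratios between subunits of 1 enzyme were compared in 6 pairs, each a single value per library. Regrouping the libraries in every possible way (an exact two-sided permutation test) gave no p under 0.05 for any of the 6, and the adjusted p over the 6 was 0.770 for each. Idh3b over Idh3g, in RPKM, was 1.20, 1.15, 1.13, 1.09 and 1.30 in AAV-Osm 1 to 5, against 1.08, 1.08, 1.22 and 1.11 in AAV-Null 1 to 4. The highest ratio was 1.20 times the lowest, so these subunits kept a nearly fixed proportion across libraries in which Idh3b itself ranged 1.57-fold and Idh3g 1.48-fold. The difference in log2 was 0.064 (exact p = 0.341).

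Idh3a did not keep such a proportion. Idh3a over Idh3b was 0.257, 0.197, 0.189, 0.266 and 0.422 in AAV-Osm 1 to 5, against 0.402, 0.400, 0.224 and 0.188 in AAV-Null 1 to 4. AAV-Osm 5, AAV-Null 1 and AAV-Null 2 were at 0.400 to 0.422, and the other 6 libraries, of both groups, at 0.188 to 0.266. The log2 difference between the groups was -0.17 (exact p = 0.659). Idh3a over Idh3g was 0.308, 0.225, 0.213, 0.291 and 0.548 in AAV-Osm 1 to 5, against 0.435, 0.433, 0.273 and 0.208 in AAV-Null 1 to 4 (log2 difference -0.11, exact p = 0.770). The 3 libraries with the high ratios also had the 3 highest TMM factors, 1.10, 1.07 and 1.07 in AAV-Osm 5, AAV-Null 1 and AAV-Null 2, where the others ran from 0.923 to 1.02. Their summed cardiomyocyte markers were 113510, 110690 and 115336 CPM in that order, where the others ran from 112382 to 147050 CPM. The median deviation of long genes minus that of short genes (summed exons over 3873 bases against at most 2175 bases, in log2 CPM) was 0.14, 0.16 and 0.082 in the same order and -0.30 to 0.083 in the others. Idh3a has 2404 bases of summed exon, Idh3b 1520 and Idh3g 1331. The part of these library properties in the ratio was not tested.

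**Figure D4:**
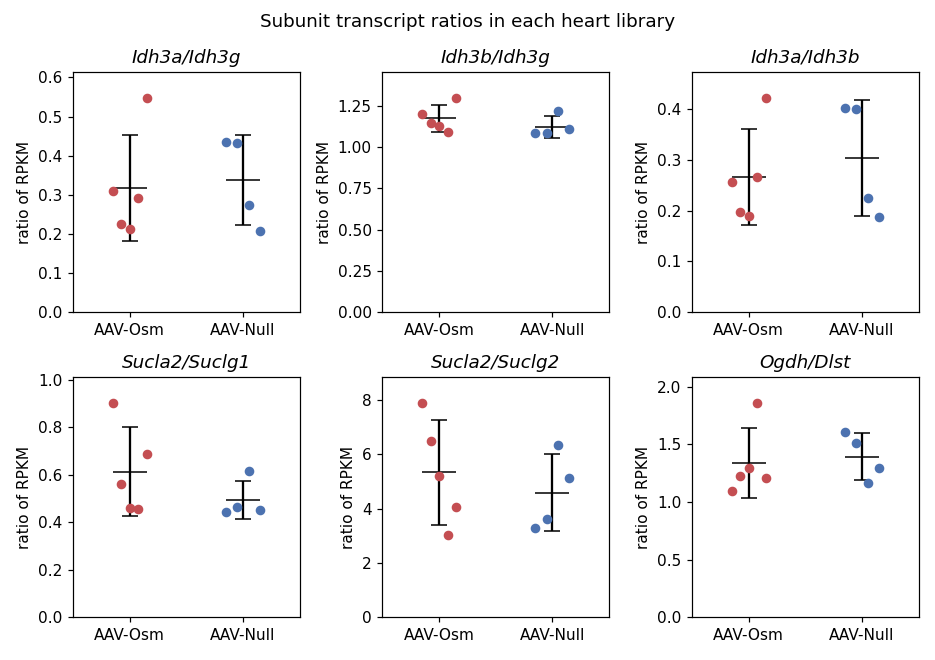
Each panel shows the ratio of a pair of subunit genes in RPKM (y axis from 0), AAV-Osm on the left and AAV-Null on the right, with points for libraries and bars for the mean and SD. Idh3b over Idh3g stays between 1.08 and 1.30, while Idh3a over Idh3b falls into a high set of 3 libraries and a low set of 6 that both include each group.

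Sucla2 over Suclg1 was 0.902, 0.562, 0.460, 0.454 and 0.688 in AAV-Osm 1 to 5, against 0.445, 0.463, 0.616 and 0.453 in AAV-Null 1 to 4 (log2 difference 0.27, exact p = 0.278). Per length, the shared alpha subunit's transcript thus exceeded that of the ATP-forming beta subunit in every library. In CPM it did not, as AAV-Osm 1 had 628 CPM of Sucla2 and 459.7 CPM of Suclg1. The beta subunits were far apart in level per length. Sucla2 over Suclg2 was 7.90, 6.50, 5.20, 3.04 and 4.07 in AAV-Osm 1 to 5, against 3.28, 3.61, 6.35 and 5.13 in AAV-Null 1 to 4, so the ATP-forming subunit's transcript was at least 3.04 times that of the GTP-forming subunit per length in each library. The size of this ratio depends on the summed exon lengths, 2108 bases for Sucla2 and 3413 bases for Suclg2, which may include exons the heart does not use. In AAV-Osm 4, where the ratio was lowest, the genes had 308 and 164 CPM. This ratio did not differ between the groups beyond their spread (log2 difference 0.19, exact p = 0.563). Ogdh over Dlst, the E2 subunit of the same complex, was 1.09, 1.23, 1.29, 1.86 and 1.21 in AAV-Osm 1 to 5, against 1.60, 1.51, 1.16 and 1.29 in AAV-Null 1 to 4 (log2 difference -0.074, exact p = 0.683).

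Across libraries the 9 genes did not follow a single pattern. The distance between genes was taken as the root mean square difference of their log2 CPM, each centred on its own mean over the 9 libraries. Over the 36 pairs the distance had a median of 0.28 and ran from 0.086, for Idh3b and Idh3g, to 0.64, for Idh3a and Fh1. Suclg1 and Mdh2 were the next closest pair at 0.10. The distance is not scaled by spread, so steady genes lie close together whatever their pattern. Suclg1 and Mdh2 were the steadiest of the 9 (SD of log2 CPM 0.074 and 0.097), so their closeness does not show a shared pattern. A wide spread, as for Idh3a (SD 0.34), likewise adds to its distance from other genes. Among all other genes 36, or 0.273% of them, lay closer to Idh3b than Idh3g did, whereas 76.1% lay closer to Idh3b than Idh3a did. The SD of log2 CPM over libraries was below the median of all genes (0.29) for 6 of the 9 and above it for Idh3a, Sucla2 and Fh1, with a median of 0.19.

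**Figure D5:**
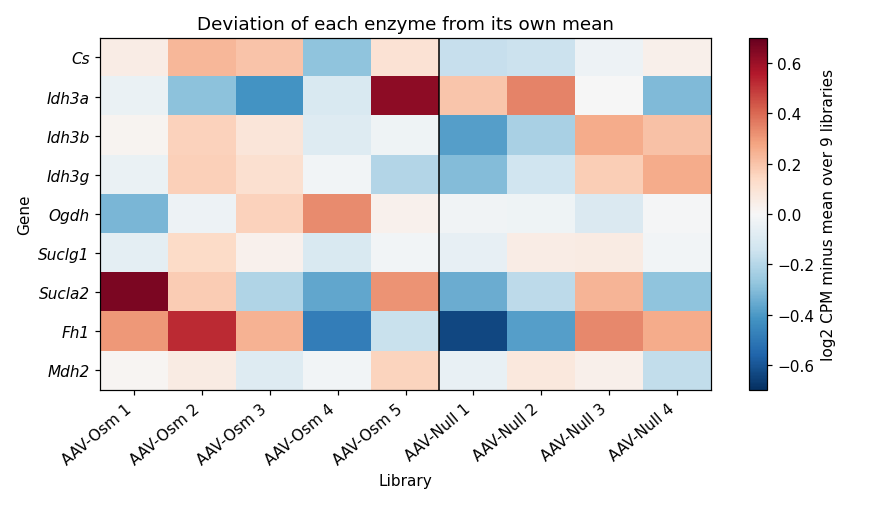
Colour gives log2 CPM minus the gene's mean over the 9 libraries, with AAV-Osm libraries left of the line and AAV-Null libraries right of it. Idh3b and Idh3g share their pattern, Idh3a runs apart from them with 0.63 in AAV-Osm 5, and Fh1 ranges from -0.64 in AAV-Null 1 to 0.52 in AAV-Osm 2.

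The genes closest to the mean pattern of the 9 by the same distance over 9 libraries were Acad9 (0.033), Rbpj (0.047) and Ywhae (0.052). The closest single gene to Cs was Iqsec1 (0.063), to Idh3a Ak4 (0.054), to Idh3b Ndufs3 (0.034), and to Idh3g Ptp4a3 (0.045). For Ogdh it was Dhrs3 (0.054), for Suclg1 Ptges3l (0.032), for Sucla2 Pgk1 (0.065), for Fh1 Pxmp2 (0.045) and for Mdh2 Mrps17 (0.050). The closest genes differed for each of the 9.

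Together the 9 genes held 0.688% to 0.837% of counts in AAV-Osm libraries and 0.674% to 0.749% in AAV-Null libraries. Their summed level averaged 7466 ± 302 CPM in AAV-Osm hearts and 7054 ± 464 CPM in AAV-Null hearts (SD, n = 5 and 4), with ranges that overlapped.

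Other enzyme genes of the cycle also had no call. Of 9 such genes, 0 rose and 0 fell over all genes in edgeR, and 0 had an unadjusted p under 0.05. Of these, 7 had a positive log2 fold change, and the median was 0.15. The mitochondrial NADP-dependent isocitrate dehydrogenase gene Idh2 had a log2 fold change of 0.36 (95% interval -0.0022 to 0.73, SE 0.169, adjusted p = 0.833 in edgeR), and per length it was at 1199.8 ± 234 RPKM in AAV-Osm hearts and 933 ± 128 RPKM in AAV-Null hearts. Ogdhl, which encodes a relative of Ogdh, was at 31.6 ± 12.2 RPKM in AAV-Osm hearts and 20.8 ± 4.87 RPKM in AAV-Null hearts, with a log2 fold change of 0.60 (95% interval -0.0073 to 1.21, SE 0.283, adjusted p = 0.834 in edgeR). For Dlst the log2 fold change was 0.15 (adjusted p = 0.950 in edgeR, SE 0.138), and for Dld, the E3 subunit shared with pyruvate dehydrogenase, 0.31 (adjusted p = 0.929 in edgeR, SE 0.205). Suclg2 had a log2 fold change of 0.086 (adjusted p = 0.983 in edgeR, SE 0.200). For the succinate dehydrogenase subunit genes these were 0.34 for Sdha, -0.076 for Sdhb, -0.12 for Sdhc and 0.077 for Sdhd (edgeR adjusted p = 0.892, 0.983, 0.964 and 0.978).

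Genes that feed the cycle or act beside it were examined in the same fit. Of 13 genes of the pyruvate dehydrogenase complex, its regulators and the pyruvate carrier, 0 passed in edgeR, and the median log2 fold change was 0.096. At an unadjusted p under 0.05, which 5.97% of all genes reached, there were 2 of the 13. These were Pdk1, a kinase that inhibits the complex, and Pdp2, a phosphatase that activates it, both named after their values were seen (log2 fold changes 0.35 and 0.63, edgeR adjusted p = 0.802 and 0.690). Pdp2 passed with limma-voom (log2 fold change 0.96, adjusted p = 0.0173) and with AAV-Osm 5 and AAV-Null 4 left out (1.02, edgeR adjusted p = 0.0335). For Pdp2, AAV-Osm 5 was the lowest AAV-Osm library (21.2 CPM) and AAV-Null 4 the highest AAV-Null library (33.2 CPM). Leaving them out therefore removed the overlap of the groups, and that call is no separate support. The most abundant per length, Mpc2 of the pyruvate carrier and Pdhb of the complex, had log2 fold changes of -0.066 and -0.049. Of 15 genes for cytosolic counterparts, anaplerosis and aminotransferases, 0 passed, 0 had an unadjusted p under 0.05, and the median was 0.12, with Mdh1, the cytosolic malate dehydrogenase, at 0.12 and Got2, the mitochondrial aspartate aminotransferase, at -0.012. Of 9 tested genes for mitochondrial carriers, 0 passed, and the median was 0.070. At an unadjusted p under 0.05, again beside 5.97% of all genes, there were 2 of the 9. They were the aspartate-glutamate carrier Slc25a13 and the glutamate carrier Slc25a22, again named after their values were seen (log2 fold changes 0.38 and 0.46, edgeR adjusted p = 0.769 and 0.802). The 2-oxoglutarate carrier Slc25a11 had a log2 fold change of 0.12 and the acylcarnitine carrier Slc25a20 one of 0.085.

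Of 14 regulators of mitochondrial gene expression 0 passed in edgeR, with 0 at an unadjusted p under 0.05 and a median log2 fold change of 0.084. Perm1, a muscle regulator of mitochondrial genes, and Esrra, the estrogen-related receptor alpha, were the most abundant per length, with log2 fold changes of 0.063 (adjusted p = 0.988 in edgeR, SE 0.245) and -0.19 (adjusted p = 0.945 in edgeR, SE 0.160). Of 15 genes for succinate dehydrogenase assembly, iron-sulphur clusters and lipoate, 0 passed, 0 had an unadjusted p under 0.05, and the median was -0.011. Bola3 and Iscu, both of the iron-sulphur pathway, were at -0.15 and -0.084. Over these 6 lists, 0 of 75 genes passed in edgeR and 0 in DESeq2, where these tools called 0.121% and 0.410% of all genes. With limma-voom 1 of the 75 passed (Pdp2), where 1.33% of all genes did, so that call is no more than the share over all genes.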

How the data were processed

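RNA from 9 heart apex samples was sequenced as 75 base paired ends after mRNA enrichment, per the labels' protocols. Per the submitters' processing notes, the authors used STAR 2.5.2b, featureCounts and Subread 1.5.1 with mm10; annotation, strand setting and handling of multiply matching reads: not given in the sources used here. Deposited by the authors were unnormalised read counts for each gene; 4141 blank lines held no values and were dropped, leaving 13192 genes. The gene Osm was not analysed here.

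Counts were tested with edgeR 4.0.16 (R 4.3.3): TMM scaling, robust quasi-likelihood F test, group as the only term, Benjamini-Hochberg adjustment over 13192 genes, threshold 0.05; filterByExpr removed 0 genes. The SE is the log2 fold change divided by the root of F, with intervals at 95%. The test was checked on simulated data. Ratios and composition used the exact two-sided permutation test, whose smallest p is 0.00794 with all 9 libraries and larger with a library left out. Only the ratios were adjusted for the number tested. Log2 CPM used a prior count of 2. RPKM divides TMM-scaled CPM by the table's exon length. Near-identical copies were sought with blastn 2.17.0 in GENCODE M21 transcripts (at least 95% identity over 200 bases); 0 other genes matched. Promoters came from RefSeq. DESeq2 1.42.0, limma 3.58.1, scaling, filters and left-out libraries were alternatives. Chi-square per degree of freedom between libraries was 6.52 for AAV-Null 1 and 2, 9.68 for AAV-Osm 2 and 3, and 17.3 to 132 for other pairs; all exceed counting noise, which does not show separate animals, and each library was kept as a sample as labelled.

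The members and gene lists were chosen with earlier results of these data known. Named genes were the 9 members, other cycle enzymes (1 listed gene is not reported here), in each further list those past the threshold or else the 2 most abundant per length, and the closest genes by pattern. Pdk1, Pdp2, Slc25a13 and Slc25a22 fall outside this rule and were named after their values were seen.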

Additional observations from a re-analysis of the deposited data

Results flagged for a closer look

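A single library stood far from the others of its group in 4 of the 30 groups of values examined (CPM of the 9 genes and the 6 subunit ratios, in each treatment group). The rule was Dixon's test, the gap to the next value over the range. It flags about 1 in 20 groups of independent, normally distributed values. The groups here share genes and libraries, so 4 of 30 cannot be set directly against that rate. AAV-Osm 5 had 522 CPM of Idh3a, against a next highest of 328 CPM in its group. The ratio of Idh3a to Idh3g in RPKM was 0.548 in the same library, against a next highest of 0.308. It uses the same Idh3a value, so it is not a separate flag. In AAV-Osm 4 the ratio of Ogdh to Dlst was 1.86, against a next highest of 1.29. In AAV-Null 3 the ratio of Sucla2 to Suclg1 was 0.616, against a next highest of 0.463. The causes were not tested.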

How the results depend on the processing

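With 21 alternatives for each of the 9 enzymes, 0 of 189 values passed the threshold, and the smallest adjusted p was 0.107 (Fh1, limma-voom with quality weights, log2 fold change 0.58). The count of enzymes past the threshold was 0 in every one of these 21. Direction held in 169 values. These include the fit without the low-count filter, which had removed 0 genes, and the fit with dispersions not robust. Both gave the log2 fold changes of the main fit, so they add no check of direction. Cs, Ogdh, Sucla2 and Fh1 were positive in all 21. Over these, Cs ran from 0.10 (without AAV-Osm 2) to 0.24 (limma-voom), Ogdh from 0.012 (without AAV-Osm 4) to 0.17 (without AAV-Osm 1), Sucla2 from 0.13 (without AAV-Osm 1) to 0.43 (without AAV-Null 3) and Fh1 from 0.027 (without AAV-Null 1) to 0.64 (without AAV-Null 3 and 4).

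The other 5 genes turned sign in some alternatives. Idh3a was as low as -0.40 (limma-voom), and Idh3b came as high as 0.34 (without AAV-Null 3 and 4). With limma-voom, Idh3g was at 0.21, Suclg1 at 0.017 and Mdh2 at -0.00099. Idh3g came to 0.23 with AAV-Null 3 and 4 left out; with AAV-Osm 5 and AAV-Null 4 left out, Idh3g came to 0.13 and Mdh2 to -0.030. These left-out pairs lie at extremes of the data. AAV-Null 4 and AAV-Osm 5 were the least alike of all pairs (chi-square per degree of freedom 132). AAV-Null 3 and 4 had the lowest contrasts of long minus short genes (-0.18 and -0.30). With 2 alternatives chosen after seeing the data, summing AAV-Null 1 and AAV-Null 2 gave -0.044 for Idh3b, and the length contrast as a covariate gave 0.14 for Idh3g. Without each library in turn, Idh3a ran from -0.28 to 0.027, Idh3b from -0.063 to 0.15, Idh3g from -0.10 to 0.083, Suclg1 from -0.050 to 0.0096, Mdh2 from 0.0046 to 0.085, and the log2 difference of Idh3a over Idh3g from -0.33 to 0.038. The other ratios ran from 0.026 to 0.10 (Idh3b over Idh3g), -0.38 to -0.0086 (Idh3a over Idh3b), 0.12 to 0.38 (Sucla2 over Suclg1), 0.029 to 0.37 (Sucla2 over Suclg2) and -0.20 to -0.0029 (Ogdh over Dlst). Their values nearest 0 came without AAV-Null 1 for Idh3a over Idh3b and Ogdh over Dlst, without AAV-Osm 1 for both Sucla2 ratios and without AAV-Osm 5 for Idh3b over Idh3g. Without AAV-Null 3 and 4, Idh3a over Idh3b was -0.66 and Idh3a over Idh3g -0.54. Among the AAV-Null libraries, AAV-Null 3 and 4 held the lowest values of both ratios and the highest of Fh1, Idh3b and Idh3g. Leaving them out therefore had to shift these values this way. Of 78 alternatives for the ratios, 0 passed (smallest exact p 0.107). Those with raw counts without length could not differ from the main values, because length cancels between the groups. Those with 1 added to each count hardly differed from them.

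The count over all genes, 16 (11 higher, 5 lower), was 53 with DESeq2 (24 and 29), 176 with limma-voom (83 and 93), 5 with AAV-Null 1 and AAV-Null 2 summed, 26 with the length contrast (14 and 12), and 4 to 11 without single libraries, over 1.5 times fewer without any 1 library but AAV-Null 3; the causes were not tested. For the other enzymes and regulators, examined this way after seeing the data, the count of 0 became 1 (Pdp2) with limma-voom and with AAV-Osm 5 and AAV-Null 4 left out. With those libraries left out, 13 of all genes passed. The summed epicardial markers differed by -46.4 to -18.5 CPM without single libraries. The median of all genes was -0.022 with total counts and 0.0092 with TMM. No paired analysis was made because the labels give no pairing.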
